A study of Mus musculus with 34 samples.

Results

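The prefrontal cortex (PFC) and the striatum of wild-type mice were compared across 12 RNA-seq libraries, 6 from each region, out of 34 libraries in the whole series. Every library that the labels give as wild type and as one of these 2 regions was used, and no other. All animals were C57BL/6J males at postnatal day 56 with no treatment given in the labels, and total RNA went into a TruSeq library kit. The series as a whole compared such wild types with mice heterozygous for a Myt1l mutation, whose allele the labels do not describe, in PFC, hippocampus and striatum. The labels do not say that the libraries of a group came from separate animals, so the p-values below measure the spread between these libraries, which may be technical.

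The deposited values are normalized counts, that is, reads per gene divided by a scaling factor of the library. A gene was tested where its mean over the 12 libraries was at least 10, which left 17008 genes. Differences are given as PFC minus striatum on the log2(normalized count + 1) scale, so that a positive value is higher in PFC, and fold changes are on that same scale, which understates the change of low genes. A gene was called where its limma adjusted p was under 0.05 and its difference was at least 1 in size, which is 2-fold. Normalized counts were compared between regions for a gene, never between genes, since no gene length enters them. The genes below were grouped in 36 lists by role, some of which share members.

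The PFC is a sheet of layered cortex whose output neurons release glutamate and whose minority of interneurons releases GABA. The striatum is built largely of GABA-releasing spiny projection neurons that receive cortical glutamate and midbrain dopamine, with a direct-pathway class marked by D1 dopamine receptors, tachykinin and dynorphin and an indirect-pathway class marked by D2 dopamine receptors, adenosine receptors and enkephalin. Scattered cholinergic interneurons supply its acetylcholine, and bundles of myelinated axons cross it.

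Of the 17008 genes tested, 2304 (13.5%) were called: 930 (5.47%) were higher in PFC and 1374 (8.08%) higher in striatum. The adjusted p alone was passed by 9448 genes (55.6%), 4619 higher in PFC (27.2%) and 4829 higher in striatum (28.4%). The 6 libraries of one region lay wholly above the 6 of the other for 6126 genes (36.0%). The median difference over all genes was -0.01 and the median size of a difference was 0.28. Large differences lay more often on the striatal side: 325 genes called higher in striatum passed 8-fold, against 105 genes called higher in PFC. Protein-coding genes made up 725 of the PFC calls and 1167 of the striatal calls. Counts of list members called, given below, are to be read against the 13.5% of all genes called.

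**Figure D1:**
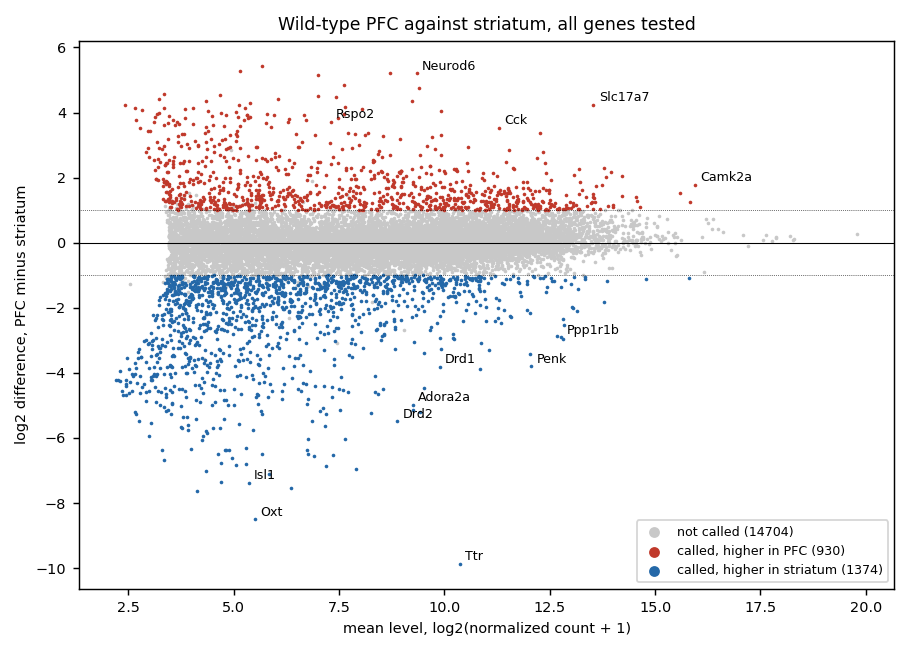
Difference between wild-type PFC and striatum (y axis, log2, PFC minus striatum) against the mean level (x axis, log2 of normalized count + 1) for each of the 17008 genes tested. Red points are the 930 genes called higher in PFC, blue points the 1374 called higher in striatum, grey points are not called and the dotted lines mark the 2-fold minimum; the blue points reach farther from 0 than the red ones.

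The libraries separated by region. Each column of the table also carries a code, which the labels do not explain, and the code of PFC replicate 6 stands on heterozygote libraries of striatum and hippocampus too. Its label, wild type, was followed, and without that library 929 genes were called higher in PFC and 1392 higher in striatum. The median size of the gene-wise difference was 0.13 to 0.17 between pairs of PFC libraries, 0.13 to 0.18 between pairs of striatal libraries and at least 0.30 across regions. The summed normalized counts were 29092563 to 29798959 in PFC and 26103069 to 27313394 in striatum, so the striatal sums were lower in every library. Cortical excitatory neuron markers averaged 11.42 to 11.61 in the PFC libraries on the log2 scale. The striatal libraries spread from 8.29 to 10.21 in the same markers, and replicates 1, 4 and 5, at 9.89, 9.70 and 10.21, stood above replicates 2, 3 and 6, at 8.29, 8.76 and 8.80. Of these 14 markers 11 were called higher in PFC and 2, Foxp2 and Nxph4, higher in striatum. Striatal projection neuron markers averaged 12.26 to 12.51 in striatum and 8.67 to 9.65 in PFC, with PFC replicate 5 the highest of its group, and 16 of the 18 were called higher in striatum.

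All 6 striatal libraries were also higher than every PFC library in the means of 3 lists of genes known as markers of neighbouring tissue. Choroid plexus and ependymal markers averaged 8.83 to 10.33 in striatum and 4.02 to 4.57 in PFC, and 15 of 15 were called higher in striatum. Thalamic and hypothalamic markers averaged 7.81 to 9.41 against 4.93 to 5.55 in PFC, with 12 of 14 called. Septal, pallidal and olfactory bulb markers averaged 8.50 to 8.84 against 4.91 to 5.61 in PFC, with 12 of 14 called. No marker on these 3 lists was called higher in PFC, and 38 of their 42 genes were called higher in striatum. Among them, Chat, Slc5a7 and Lhx8 are also on the lists of cholinergic genes or factors, and Th and Calb2 on that of interneuron markers. So these counts include genes that cells of the striatum itself may express. The hypothalamic transcription factor gene Sim1 was at 0 in all 6 PFC libraries and between 17.9 and 140 in the striatal ones. In bulk tissue, fewer cells of a type and less RNA per cell cannot be told apart.

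**Figure D2:**
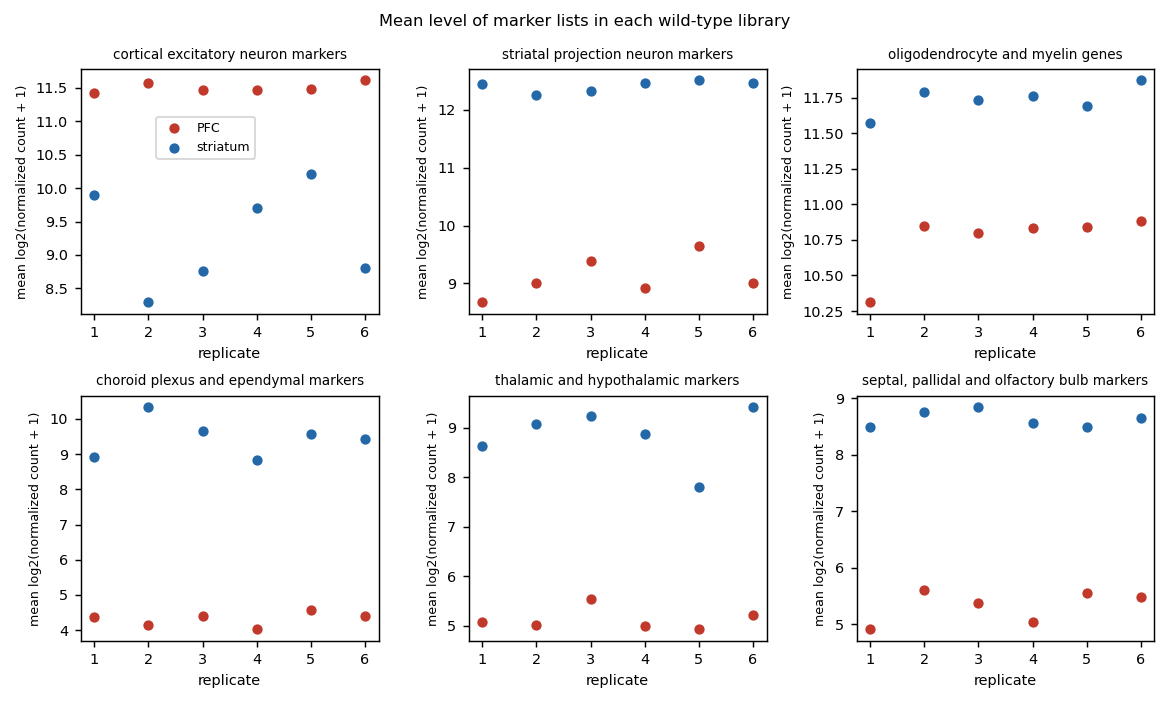
Mean level of 6 marker lists (y axis, mean log2 of normalized count + 1) in each wild-type library (x axis, replicate number within its region, which does not pair the libraries), PFC in red and striatum in blue. Striatal replicates 1, 4 and 5 lie above the other striatal libraries in cortical markers, PFC replicate 1 lies at 10.31 in myelin genes against 10.80 to 10.88 for the other PFC libraries, and the lower row shows choroid plexus, thalamic or hypothalamic, and septal or pallidal markers higher in every striatal library than in any PFC library.

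Sequences upstream of 4 called genes, a direct-pathway peptide, a striatal transcription factor, a cortical transcription factor and a cortical peptide, are shown as examples. The windows of 13 called genes were read; 5 of them, these 4 and that of Tbr1, carry at least 1 of the motifs given below, and 8 (Pdyn, Drd1, Drd2, Isl1, Rarb, Slc17a7, Neurod6 and Fezf2) carry none. Each is the 250 bases before the RefSeq start of the gene in GRCm38.p6, read 5′ to 3′ on the strand of the gene, and capitals mark motif matches on either strand. Tac1, higher in striatum, has the window chr6:7554811-7555060 on the plus strand, and Six3, higher in striatum, chr17:85620584-85620833 on the plus strand. Neurod2, higher in PFC, has chr11:98329646-98329895 on the minus strand, and Cck, higher in PFC, chr9:121495695-121495944 on the minus strand.
Tac1: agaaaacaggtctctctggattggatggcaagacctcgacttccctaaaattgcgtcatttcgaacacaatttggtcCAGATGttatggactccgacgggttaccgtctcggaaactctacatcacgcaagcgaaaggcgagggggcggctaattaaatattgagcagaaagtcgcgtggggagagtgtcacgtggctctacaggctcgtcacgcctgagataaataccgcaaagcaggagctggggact
Six3: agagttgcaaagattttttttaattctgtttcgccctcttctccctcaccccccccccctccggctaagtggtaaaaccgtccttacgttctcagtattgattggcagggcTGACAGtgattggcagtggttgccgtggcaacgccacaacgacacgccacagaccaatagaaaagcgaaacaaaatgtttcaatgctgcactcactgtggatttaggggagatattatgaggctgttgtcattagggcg
Neurod2: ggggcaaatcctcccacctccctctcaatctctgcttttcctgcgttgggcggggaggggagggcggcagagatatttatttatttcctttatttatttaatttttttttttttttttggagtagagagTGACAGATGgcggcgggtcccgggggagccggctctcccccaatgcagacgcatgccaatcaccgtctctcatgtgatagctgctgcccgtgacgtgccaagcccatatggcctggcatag
Cck: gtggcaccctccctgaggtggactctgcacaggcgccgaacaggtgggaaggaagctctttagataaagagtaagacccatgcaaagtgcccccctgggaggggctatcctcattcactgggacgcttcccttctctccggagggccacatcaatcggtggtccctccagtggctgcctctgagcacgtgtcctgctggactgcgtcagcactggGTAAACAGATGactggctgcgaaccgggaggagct

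The motifs were CAGATG, an E-box read by NeuroD-type factors, TGACAG, a MEIS and TALE homeodomain half-site, TGTTTAC, a forkhead site, TGACGTCA, the cyclic AMP response element, and TATAAA, the TATA box, each searched on both strands. The Tac1 window held CAGATG at -173 and the Six3 window TGACAG at -139. TGACAG at -121 and CAGATG at -118 overlapped in Neurod2, and TGTTTAC at -35 and CAGATG at -30 overlapped in Cck. CAGATG occurred in 13% of the 610 windows of genes called higher in PFC, in 13.4% of the 964 of genes called higher in striatum and in 10.4% of all 12249 windows of tested genes. TGACAG was present in 13.3%, 14.8% and 13.9% of these windows, TGTTTAC in 2.13%, 2.9% and 2.11%, and TGACGTCA in 1.97%, 1.76% and 2.63%. TATAAA occurred in 11.3% of the PFC windows and 9.96% of the striatal windows against 6.67% of all. The median window held 10 CpG dinucleotides for PFC calls, 9 for striatal calls and 15 for all genes. A match is a run of letters and no measured binding site, and every motif was found in windows of both regions' genes.

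Glutamate genes differed in the vesicular transporters far more than in the receptors. Of 13 genes of glutamate synthesis and transport, 2 were called higher in PFC and 2 higher in striatum, 30.8% against 13.5% of all genes. The median difference of the list, 0.12, turned to -0.02 once libraries were scaled to equal totals. Slc17a7, the vesicular glutamate transporter of cortical neurons, ran from 37435 to 39276 normalized counts in PFC (median 37829) and from 410 to 8530 in striatum (median 3089). The groups did not overlap, and the difference was 4.24 (SE 0.78, limma adjusted p = 0.000795), 18.9-fold higher in PFC. Slc17a7 is itself one of the cortical markers that set striatal replicates 1, 4 and 5 apart: these were at 6304, 5294 and 8530 and replicates 2, 3 and 6 at 410, 648 and 884. Without replicates 1, 4 and 5 the difference was 5.95, and without replicates 2, 3 and 6 it was 2.54.

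The other vesicular transporters ran the opposite way. Slc17a6, which marks thalamic and other subcortical glutamate neurons, was at 284 to 382 in PFC (median 344) and 1563 to 3421 in striatum (median 2815), a difference of -2.94 (SE 0.18, limma adjusted p = 8.97e-09). Slc17a6 is itself on the thalamic and hypothalamic list described above, and the part of neighbouring tissue in its value was not tested. Slc17a8, a vesicular transporter which striatal cholinergic interneurons use, differed by -1.67 (SE 0.15, limma adjusted p = 5.18e-08). Gls2, a mitochondrial glutaminase, was called higher in PFC at 1.04 and fell below the 2-fold minimum without PFC replicate 1 or without striatal replicate 3.

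Ionotropic glutamate receptor genes were called higher in PFC for 2 of 17 and higher in striatum for 2 of 17, 23.5% against 13.5% of all genes. The median of the list, 0.08, turned to -0.06 with equal library totals and to -0.14 with quantile normalization. Grin2a, an NMDA receptor subunit, was at 6493 to 7635 in PFC (median 7364) and 1798 to 3247 in striatum (median 2386), 3.05-fold higher in PFC (limma adjusted p = 2.23e-08). Gria3, an AMPA receptor subunit, differed by 1.05. On the striatal side, the kainate receptor subunit gene Grik2 was at 3921 to 4178 there (median 4028) against 1607 to 1870 in PFC (median 1694), a difference of -1.23 (SE 0.04, limma adjusted p = 1.71e-12). Grin2d, at -1.01, fell short of the minimum without any of PFC replicates 2 and 6 or striatal replicates 2, 3 and 6. The groups of Grin2a and of Grik2 did not overlap. The NMDA subunit Grin2b (0.65) and the AMPA subunit Gria1 (-0.55) passed the adjusted p without reaching 2-fold.

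Metabotropic glutamate receptors split by gene, with 1 of 7 called higher in PFC and 2 higher in striatum. Grm2, a presynaptic autoreceptor, was at 1267 to 1500 in PFC (median 1319) and 264 to 414 in striatum (median 334), 4.03-fold higher in PFC (difference 2.01, SE 0.10, limma adjusted p = 7.29e-11). Grm4, another presynaptic receptor, was called higher in striatum at -1.23 (SE 0.06, limma adjusted p = 1.91e-11).

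GABA synthesis and transport genes lay on the striatal side: 4 of 8 were called higher in striatum and none in PFC, with a median of -1.05 against -0.01 over all genes. Gad2, a GABA-synthesizing enzyme, was at 16057 to 18177 in striatum (median 16843) and 4094 to 4439 in PFC (median 4174). That gap, with no overlap, was a difference of -2.01 (SE 0.04, limma adjusted p = 5.71e-15). Slc32a1, the vesicular GABA transporter, differed by -1.77, Slc6a11, a GABA uptake transporter, by -1.17 and Abat, which breaks GABA down, by -1.10. Gad1, the other synthesizing enzyme, was at 13530 to 15278 in striatum (median 14033) and 6516 to 7526 in PFC (median 7131). At -0.99 (SE 0.04, limma adjusted p = 8.27e-12) Gad1 passed the adjusted p and lay just under the 2-fold minimum.

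GABA receptor genes were called for 4 of 16 (25.0%, against 13.5% of all genes), 3 higher in striatum and 1 in PFC. The median of the list, 0.08, turned to -0.06 with equal totals and -0.16 with quantile normalization. Gabre, a rare GABA-A subunit, was at 152 to 303 in striatum (median 216) and 0.961 to 11.5 in PFC (median 3.42), a difference of -5.57 (SE 0.33, limma adjusted p = 5.64e-10). Gabrq, another rare GABA-A subunit, was at 579 to 1072 in striatum (median 766) and 16.9 to 36.2 in PFC (median 33.3), a difference of -4.74, and Gabrg1 was called at -1.26. The first 2 of these subunits are known from hypothalamus and other deep nuclei, whose markers were higher in every striatal library as given above, and the part of those nuclei in the 2 values was not tested. Gabbr2, a subunit of the metabotropic GABA-B receptor, was 2.78-fold higher in PFC (difference 1.47, SE 0.05, limma adjusted p = 1.22e-12).

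Dopamine genes were the most one-sided of the amine systems. Of 10 genes of dopamine reception and handling, 6 were called higher in striatum, none in PFC, and all 10 lay below 0 with a median of -1.76. Drd1, the D1 receptor of the direct pathway, was at 2921 to 4011 in striatum (median 3475) and 159 to 391 in PFC (median 248). Its difference of -3.82 (SE 0.17, limma adjusted p = 3.94e-10) was 14.2-fold. Drd2, the D2 receptor of the indirect pathway, was at 2383 to 3045 in striatum (median 2774) and 12.9 to 200 in PFC (median 59.2), 44.9-fold higher in striatum (difference -5.49, SE 0.54, limma adjusted p = 5.67e-06). Neither receptor overlapped between regions, and the PFC libraries spread over a wider ratio than the striatal ones in both.

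Drd3, a D2-like receptor abundant in the ventral striatum, was at 39 to 72.9 in striatum and 0 to 4.53 in PFC, a difference of -4.95 (SE 0.43, limma adjusted p = 4.84e-08). Drd5, the other D1-like receptor, overlapped between regions, at 75.4 to 115 in striatum and 59.3 to 85.6 in PFC. Its difference was -0.38 (SE 0.14, limma adjusted p = 0.0321). Slc18a2, the vesicular monoamine transporter, was at 180 to 297 in striatum (median 203) and 2.38 to 19.5 in PFC (median 7.77). Th, the rate-limiting enzyme of catecholamine synthesis, was at 165 to 214 (median 185) and 30.3 to 78.2 (median 37.9). Their differences were -4.65 and -2.13, both called with no overlap, and Th is also on the septal, pallidal and olfactory bulb list.

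Of 19 acetylcholine genes, 8 were called higher in striatum and 4 in PFC, with a median of -0.85. Chat, which makes acetylcholine, was at 334 to 497 in striatum (median 429) and 8.25 to 61.5 in PFC (median 14.7), 23.8-fold higher in striatum (difference -4.57, SE 0.37, limma adjusted p = 9.1e-08). Slc5a7, the choline transporter of cholinergic terminals, was at 762 to 1255 in striatum (median 1033) and 27.5 to 58.2 in PFC (median 42.5), a difference of -4.59 (SE 0.16, limma adjusted p = 1.71e-12). The vesicular transporter gene Slc18a3 differed by -4.13 and the degrading enzyme gene Ache by -1.17. Chat and Slc5a7 are themselves on the septal, pallidal and olfactory bulb list, as are Lhx8 and Nkx2-1. The means of that list, 8.50 to 8.84 in striatum and 4.91 to 5.61 in PFC, thus include Chat and Slc5a7. The part of septal and pallidal tissue in the cholinergic result was not tested.

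Acetylcholine receptors were called in both directions. The muscarinic genes Chrm1 and Chrm3, which act through phospholipase C, were called higher in PFC. Chrm1 was at 4744 to 5339 in PFC (median 4902) and 1891 to 2782 in striatum (median 2193), a difference of 1.14, and Chrm3 differed by 1.64. Chrm2, an inhibitory muscarinic receptor of cholinergic neurons, was called higher in striatum at -1.08. Chrm4, which spiny neurons carry, was higher in striatum by the adjusted p at -0.85 (SE 0.13, limma adjusted p = 3.56e-05) without reaching 2-fold. The nicotinic subunits Chrnb3 (2.91) and Chrna5 (2.66) were called higher in PFC, and Chrnb4 (-3.49) and Chrna3 (-2.34) higher in striatum.

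Serotonin receptors were called for 8 of 12, 5 higher in striatum and 3 in PFC. Htr2c, a receptor coupled to phospholipase C, was at 2878 to 3704 in striatum (median 2973) and 347 to 601 in PFC (median 433), 7.04-fold higher in striatum (difference -2.81, SE 0.11, limma adjusted p = 1.66e-11). Its close relative Htr2a, known from cortical pyramidal neurons, was at 1472 to 2169 in PFC (median 1874) and 485 to 1033 in striatum (median 775). That was a difference of 1.31 (SE 0.16, limma adjusted p = 1.08e-05), so the related receptors ran in opposite directions without overlap. The part of choroid plexus and other neighbouring tissue in the striatal values of Htr2c was not tested. Htr1d (-4.01) and Htr4 (-3.11) were called on the striatal side, and Htr3a, the ion channel receptor of a class of cortical interneurons, was called on the PFC side at 1.52 with Htr5a at 1.11.

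Adrenergic and histamine receptors were called for 4 of 11, with a median of 0.58. Adra1d, an alpha-1 receptor, was at 550 to 774 in PFC (median 645) and 33.8 to 77.3 in striatum (median 40.5), 14.2-fold higher in PFC (difference 3.83, SE 0.17, limma adjusted p = 1.5e-11). Adra1b (1.74) and the beta-1 receptor gene Adrb1 (1.32) were also called higher in PFC. Adra2b, an alpha-2 receptor known from thalamus, was the exception, at 55 to 108 in striatum and 0.834 to 3.05 in PFC, with a difference of -5.01.

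Neuropeptide precursor genes were called for 17 of 20 (85.0%), 11 higher in striatum and 6 in PFC. Penk, the enkephalin precursor of the indirect pathway, was at 14087 to 17544 in striatum (median 15738) and 940 to 1767 in PFC (median 1016), 13.9-fold higher in striatum (difference -3.80, SE 0.14, limma adjusted p = 5.53e-11). Tac1, the substance P precursor of the direct pathway, was at 2482 to 3438 in striatum (median 3019) and 267 to 438 in PFC (median 284), a difference of -3.27 (SE 0.12, limma adjusted p = 5.2e-12). Pdyn, the dynorphin precursor of the same pathway, was at 1599 to 2250 in striatum (median 1944) and 492 to 681 in PFC (median 634), a difference of -1.66. None of these peptides overlapped between regions.

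Peptides of cortical neurons were higher in PFC. Cck, cholecystokinin, was at 7437 to 8641 in PFC (median 8329) and 465 to 1386 in striatum (median 648), 11.5-fold higher in PFC (difference 3.53, SE 0.25, limma adjusted p = 2.56e-07). Vip, which marks a class of cortical interneurons, was at 1297 to 1486 in PFC (median 1377) and 62.5 to 291 in striatum (median 176), a difference of 3.19. Cort, cortistatin, differed by 3.77, Grp, gastrin-releasing peptide, by 1.79 and Npy, neuropeptide Y, by 1.64. Somatostatin, Sst, differed by 0.39 (SE 0.06, limma adjusted p = 1.98e-05) and was not called.

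Peptides known from hypothalamus were among those with the largest differences toward striatum. Oxt, oxytocin, was at 189 to 1358 in striatum (median 826) and 0 to 4.18 in PFC (median 0.627), a difference of -8.50 (SE 0.54, limma adjusted p = 7.24e-09). Avp, vasopressin, was at 10.8 to 471 in striatum (median 273) and 0 to 8.6 in PFC, a difference of -6.37. Gal, galanin, differed by -6.62, Nts, neurotensin, by -6.38 and Trh, thyrotropin-releasing hormone, by -4.96. Oxt, Avp and Trh are themselves on the marker lists of neighbouring tissue, whereas Gal and Nts are on none of them. The part of that tissue in the peptide results was not tested.

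Neuropeptide receptors were called for 15 of 26, 9 higher in striatum and 6 in PFC. Tacr1, the substance P receptor, was at 511 to 691 in striatum (median 625) and 35.6 to 53.4 in PFC (median 46), 13.5-fold higher in striatum (difference -3.76, SE 0.12, limma adjusted p = 6.08e-13). The mu opioid receptor gene Oprm1 (-2.31) and the kappa opioid receptor gene Oprk1 (-2.10) were called on the same side as the opioid precursors. Galr1 (-5.60) and Tacr3 (-4.74), receptors for galanin and neurokinin B, had the largest differences of the list. Cckbr, the brain cholecystokinin receptor, was at 1538 to 1867 in PFC (median 1711) and 181 to 423 in striatum (median 258), 6.43-fold higher in PFC (difference 2.69, SE 0.20, limma adjusted p = 6.18e-08), as its ligand was. The somatostatin receptors Sstr3 (2.12), Sstr4 (1.71) and Sstr2 (1.1) and the vasoactive intestinal peptide receptor gene Vipr1 (1.73) were called higher in PFC.

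Endocannabinoid and adenosine genes were called for 6 of 14, 3 in each direction. Adora2a, the adenosine receptor of indirect-pathway neurons, was at 2641 to 3653 in striatum (median 3399) and 64.7 to 251 in PFC (median 89.8). The difference was -4.98 (SE 0.28, limma adjusted p = 1.71e-08), 31.6-fold, and PFC replicate 5, at 251, stood above the other PFC libraries, at up to 115. Nt5e, which makes adenosine outside the cell, differed by -2.05, and the nucleoside transporter gene Slc29a1, at -1.01, lay at the 2-fold minimum and lost its call in several alternatives. Enzymes that break down endocannabinoids ran the other way: Faah was at 2692 to 3054 in PFC (median 2902) and 697 to 975 in striatum (median 878), a difference of 1.78, and Mgll differed by 1.61. Dagla, which makes an endocannabinoid, differed by 1.07. Cnr1, the CB1 cannabinoid receptor, overlapped between regions, at 4345 to 4951 in PFC and 4206 to 6573 in striatum (difference -0.23, SE 0.09, limma adjusted p = 0.053).

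**Figure D3:**
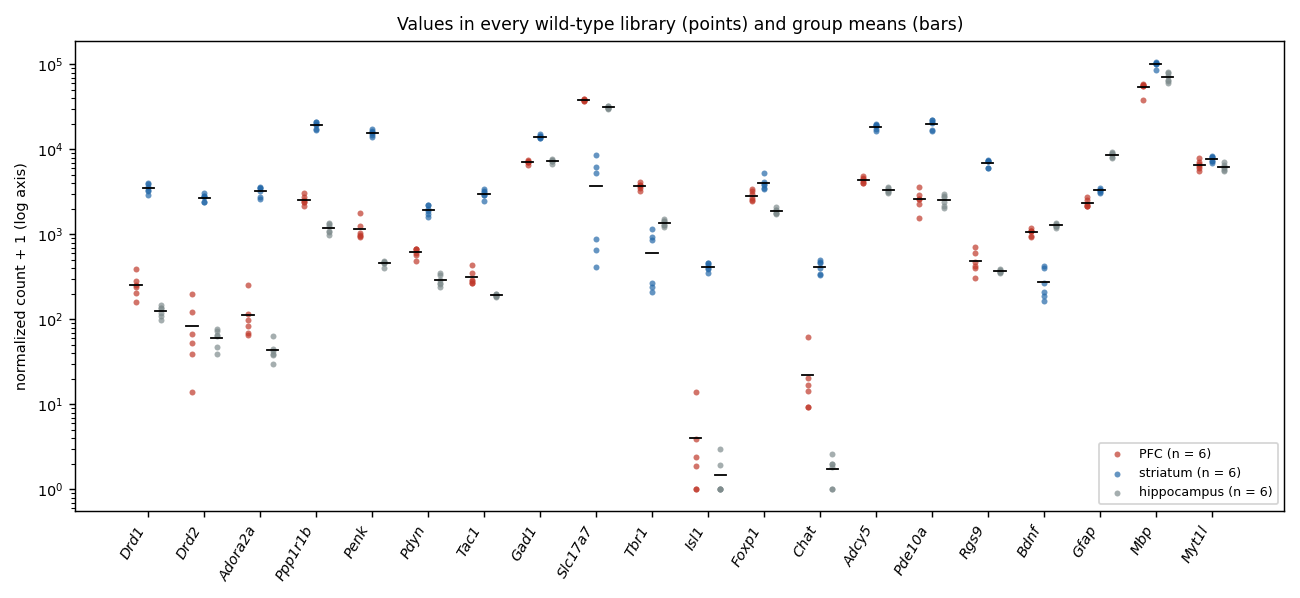
Normalized counts (y axis, log axis, 1 added) of 19 region markers and of Myt1l in every wild-type library, with PFC in red, striatum in blue and hippocampus in grey (6 libraries each) and bars at the group means. Drd1, Drd2, Adora2a, Penk and Isl1 show no overlap between PFC and striatum, and the striatal values of Slc17a7 and Tbr1 spread over a wide range.

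Of 30 cortical projection neuron factors, 15 were called higher in PFC and 2 higher in striatum, with a median of 0.97 against -0.01 over all genes. Neurod6, a bHLH factor of cortical excitatory neurons, was at 2277 to 2999 in PFC (median 2554) and 8.1 to 522 in striatum (median 68.5), a difference of 5.21 (SE 0.91, limma adjusted p = 0.000558). Its relative Neurod2 was at 2185 to 2613 in PFC (median 2470) and 5.42 to 439 in striatum (median 159), a difference of 4.75. Both genes are on the list of cortical markers that set striatal replicates 1, 4 and 5 apart, so how they vary between those libraries and the others is no independent observation. Without striatal replicates 1, 4 and 5 they were 7.05 and 6.67, and without replicates 2, 3 and 6 they were 3.36 and 2.84.

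Tbr1, a T-box factor of deep-layer neurons, was at 3203 to 4181 in PFC (median 3729) and 210 to 1147 in striatum (median 564), a difference of 2.93 (SE 0.46, limma adjusted p = 0.000232). The groups did not overlap. In striatal replicates 1, 4 and 5 Tbr1, also one of those markers, was at 940, 860 and 1147, and in replicates 2, 3 and 6 at 210, 242 and 268. Fezf2, which directs subcortical projection neurons, differed by 3.31, Emx1, a pallial homeobox gene, by 3.92, Mef2c by 2.26 and Cux2, of the upper layers, by 1.92. The exceptions were Eomes (-4.09), which is on the olfactory bulb list too, and Nr2f2 (-1.48).

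Striatal projection neuron factors showed the reverse, with 17 of 25 called higher in striatum, none in PFC and a median of -1.51. Isl1, a LIM homeobox factor of direct-pathway and cholinergic neurons, was at 348 to 460 in striatum (median 419) and 0 to 12.9 in PFC (median 1.15), a difference of -7.37 (SE 0.51, limma adjusted p = 1.08e-08). Six3, a homeobox factor of indirect-pathway neurons, was at 1251 to 1647 in striatum (median 1345) and 4.54 to 44.2 in PFC (median 14.7), 91.6-fold higher in striatum (difference -6.52, SE 0.40, limma adjusted p = 1.56e-08). The noncoding RNA beside it, Six3os1 (chr17:85600651-85618398 on the minus strand of GRCm38), was at 522 to 690 in striatum and 0 to 52.3 in PFC, a difference of -7.55. Where the library strand is not known, reads of overlapping antisense transcripts cannot be told apart.

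Other striatal factors had smaller differences. Foxp2 was called higher in striatum at -2.22, Bcl11b at -1.26 and the homeobox gene Dlx6, of GABAergic lineages, at -2.95. Foxp1, a forkhead factor of spiny neurons, was at 3436 to 5245 in striatum (median 3837) and 2443 to 3428 in PFC (median 2801), a difference of -0.48 (SE 0.10, limma adjusted p = 0.00113) that fell short of 2-fold. Meis2, also short of 2-fold, differed by -0.75. Foxp1, Meis2 and Bcl11b were at 1445 normalized counts or more in every library of both regions. Isl1 and Six3 reached at most 12.9 and 44.2 in PFC, against at least 348 and 1251 in striatum. Levels were not compared between these genes.

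Factors of cholinergic neurons and cortical interneurons were called for 11 of 16, 8 higher in striatum and 3 in PFC. Lhx8, which specifies forebrain cholinergic neurons, was at 221 to 320 in striatum (median 268) and 0 to 7.97 in PFC (median 0), a difference of -7.36 (SE 0.46, limma adjusted p = 1.59e-09). Nkx2-1, a ventral forebrain factor, was at 202 to 252 in striatum (median 221) and 0 to 7.57 in PFC, a difference of -6.37. Gbx1 (-5.94) and Gbx2 (-5.69) followed. Satb1, of somatostatin interneurons, was called higher in PFC at 1.51 (SE 0.10, limma adjusted p = 2.55e-09), with Npas1 at 1.18. Lhx8 and Nkx2-1 are also septal and pallidal markers and Gbx2 a thalamic one, and the part of these tissues was not tested.

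Activity-induced factors lay on the PFC side for 17 of 18 genes, and those 17 passed the adjusted p, against 27.2% of all genes on that side. Only 3 reached 2-fold, Bhlhe40 (1.54), Ier2 (1.46) and Egr3 (1.15), and the median was 0.57. Egr3 was at 5012 to 7597 in PFC (median 6813) and 2592 to 3824 in striatum (median 2830), without overlap. Fos, the classic activity reporter, was at 419 to 819 in PFC (median 632) and 314 to 544 in striatum (median 394), with overlap (difference 0.58, SE 0.16, limma adjusted p = 0.00509). Atf3, a stress-induced factor, was called on the striatal side at -1.01 and lost that call without any of PFC replicates 2 and 6 or striatal replicates 1, 4 and 5.

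Cyclic nucleotide genes were called for 11 of 36, 7 higher in striatum and 4 in PFC, with a median of -0.12. Ppp1r1b, whose product DARPP-32 integrates dopamine signals in spiny neurons, was at 16779 to 21135 in striatum (median 19692) and 2171 to 3103 in PFC (median 2460), 7.54-fold higher in striatum (difference -2.91, SE 0.08, limma adjusted p = 7.32e-13). Pde10a, the phosphodiesterase enriched in spiny neurons, was at 16284 to 22146 in striatum (median 20508) and 1576 to 3644 in PFC (median 2609), a difference of -2.95. Adcy5, the adenylyl cyclase behind the D1, D2 and adenosine receptors of spiny neurons, was at 16394 to 19863 in striatum (median 19149) and 4043 to 4861 in PFC (median 4348), a difference of -2.09. None of these genes overlapped between regions, and Pde1c (-2.35), Pde1b (-2.34) and Pde7b (-1.72) were called on the same side.

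The cyclase genes split. Adcy1, a calcium-stimulated adenylyl cyclase, was at 31640 to 35147 in PFC (median 32737) and 5467 to 10321 in striatum (median 7627), 4.49-fold higher in PFC (difference 2.17, SE 0.12, limma adjusted p = 3.32e-09). Adcy2 (1.25), Pde1a (1.35) and the protein kinase A subunit gene Prkar1b (1.16) were also called higher in PFC.

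G protein subunit and RGS genes were called for 10 of 43 (23.3%, against 13.5% of all genes), 8 higher in striatum. Rgs9, which speeds the shut-off of D2 and opioid receptor signals, was at 6045 to 7524 in striatum (median 7277) and 310 to 717 in PFC (median 453), 14.6-fold higher in striatum (difference -3.87, SE 0.17, limma adjusted p = 7.47e-10). The groups did not overlap. The G protein genes that couple D1 and adenosine receptors to the cyclase were higher too, Gng7 at -2.88 and Gnal at -1.42. Gnas, the more general stimulatory alpha subunit, overlapped between regions, at 27876 to 29605 in PFC and 23089 to 28356 in striatum (difference 0.17, limma adjusted p = 0.00846). Rgs6 (1.42) and Gng13 (1.36) were called higher in PFC.

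Calcium and phospholipid signalling genes were called for 19 of 45, 12 higher in PFC and 7 in striatum, with a median of 0.40. Camk2a, the calcium/calmodulin kinase abundant at excitatory synapses, was at 108160 to 123468 in PFC (median 114419) and 27085 to 42993 in striatum (median 33563), 3.42-fold higher in PFC (difference 1.77, SE 0.10, limma adjusted p = 9.3e-10). Nrgn, neurogranin, a calmodulin-binding protein, was at 35601 to 41719 in PFC (median 37741) and 6057 to 13595 in striatum (median 9732), a difference of 2.04. Dgkz (1.85), Camk2n1 (1.54) and Itpka (1.49) were called with them. On the striatal side, Rasgrp2, a calcium-regulated activator of Rap1, differed by -2.42 and Rasd2, the striatal small GTPase Rhes, by -2.06. Calb2 (-3.38) and Prkcd (-2.05) were also higher in striatum and are on the thalamic and hypothalamic list, whose part was not tested.

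Neurotrophic genes were called for 11 of 33, 7 higher in striatum and 4 in PFC. Bdnf, which cortical axons carry to the striatum, was at 943 to 1198 in PFC (median 1092) and 166 to 424 in striatum (median 238), a difference of 2.04 (SE 0.21, limma adjusted p = 2.26e-06) without overlap. The 3 striatal libraries with most cortical markers held 403, 267 and 424 and the others 187, 208 and 166. Ntrk2, the BDNF receptor, was at 21222 to 24781 in striatum and 18182 to 20936 in PFC, a difference of only -0.22 (SE 0.05, limma adjusted p = 0.000586). Gdnf, a survival factor of dopamine neurons that striatal interneurons make, was at 79.9 to 94.7 in striatum and 0 to 3.35 in PFC, a difference of -5.35. Ngfr (-4.35) and the GDNF receptor gene Ret (-2.21) were called with it, and Gfra2, the neurturin receptor, was called higher in PFC at 1.56 with the neuregulin gene Nrg3 at 1.13.

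Retinoid genes were called for 7 of 17, 4 higher in PFC and 3 in striatum. The nuclear receptor Rarb, a retinoic acid receptor of spiny neurons, was at 1653 to 1973 in striatum (median 1769) and 174 to 276 in PFC (median 197), 8.36-fold higher in striatum (difference -3.06, SE 0.11, limma adjusted p = 2.17e-12). Its partner Rxrg was at 1053 to 1603 in striatum (median 1430) and 99.7 to 204 in PFC (median 142), a difference of -3.26. Neither overlapped. Crabp1, a retinoic acid binding protein, differed by -4.0. On the PFC side stood the synthetic enzyme Aldh1a3 (2.55), the degrading enzyme Cyp26b1 (1.58) and the receptor Rara (1.45).

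Wnt genes were called for 10 of 32, 6 higher in PFC and 4 in striatum. Rspo2, a secreted enhancer of Wnt signals, was at 476 to 550 in PFC (median 532) and 21.9 to 84.8 in striatum (median 33.3), 13.1-fold higher in PFC (difference 3.71, SE 0.34, limma adjusted p = 4.11e-07). The ligands Wnt10a (3.10), Wnt9a (2.31), Wnt4 (1.95) and Wnt7b (1.41) were called higher in PFC. Dkk3, a Dickkopf-family secreted protein, was at 10454 to 12040 in PFC (median 11456) and 1508 to 2995 in striatum (median 1716), a difference of 2.60. Tcf7l2, a Wnt effector that also marks thalamus, differed by -2.83, the receptor gene Fzd5 by -1.60 and the secreted Wnt antagonist gene Sfrp2 by -1.38.

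Ephrin, semaphorin, slit and netrin genes were called for 13 of 53, 5 higher in PFC and 8 in striatum, which is 24.5% against 13.5% of all genes. Robo3, a receptor of the Roundabout family, was at 1815 to 2302 in PFC (median 1990) and 113 to 470 in striatum (median 302), a difference of 2.98 (SE 0.35, limma adjusted p = 2.12e-05). Ephb3, an ephrin receptor, differed by 2.16, its relative Ephb6 by 1.55 and Sema7a, a membrane-anchored semaphorin, by 1.29. Efnb3, an ephrin ligand, was at 3879 to 4695 in striatum (median 4302) and 1010 to 1601 in PFC (median 1355), a difference of -1.70, and the secreted semaphorin gene Sema3f differed by -1.59. Ntng1 (-1.95) and its relative Ntng2 (1.45), membrane-bound netrins, were called in opposite directions.

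**Figure D4:**
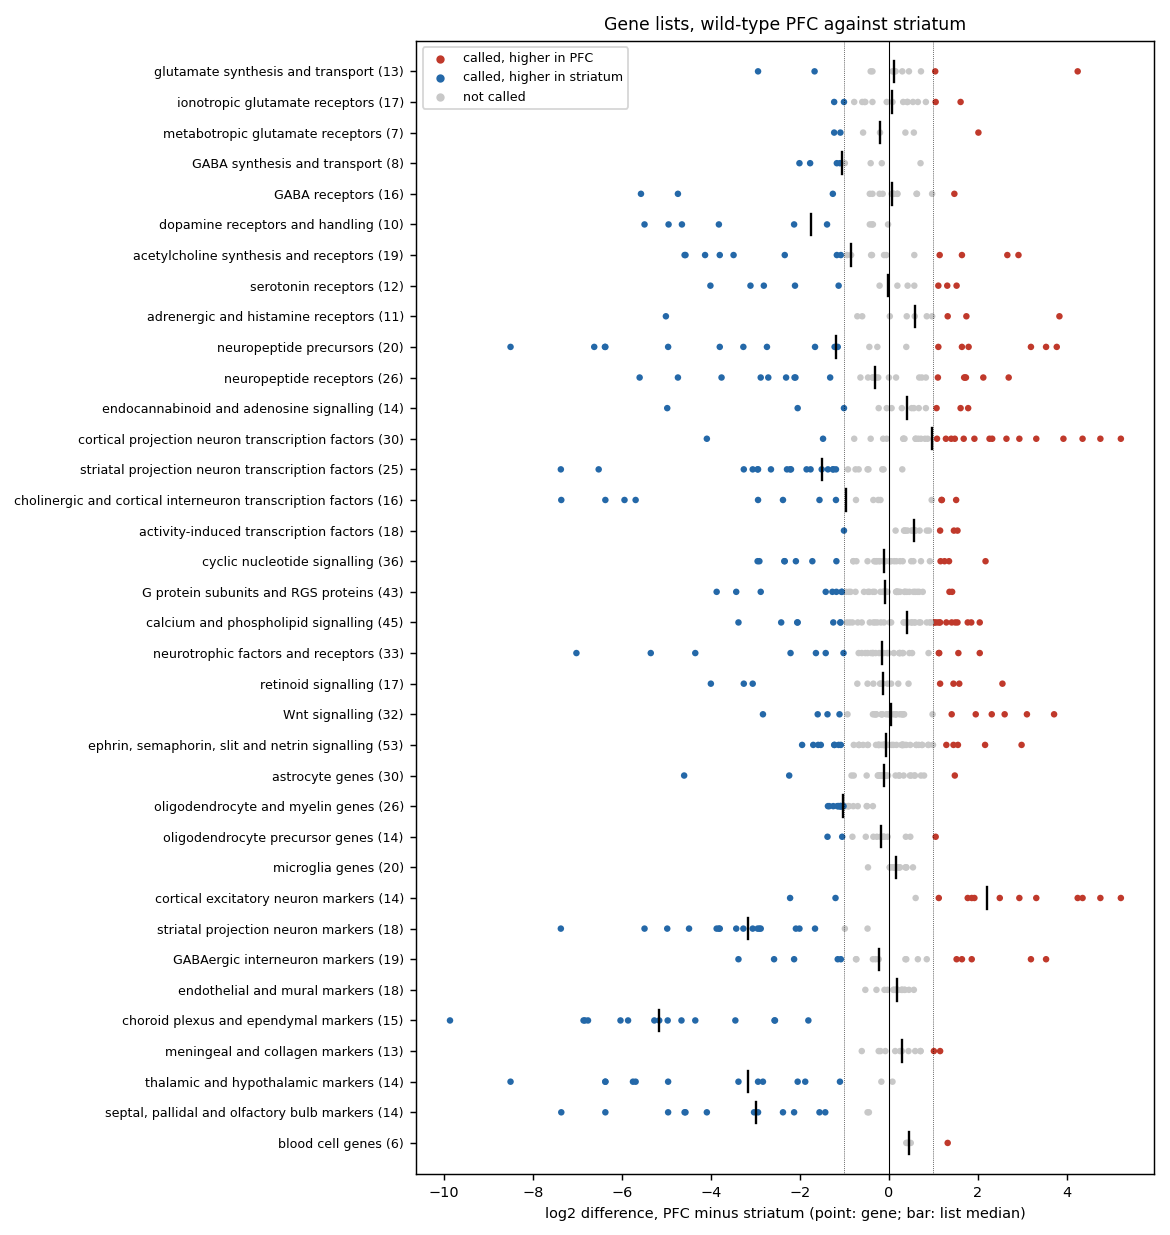
Differences between wild-type PFC and striatum (x axis, log2, PFC minus striatum) of every tested gene of the 36 lists (rows, number tested in brackets), with red points called higher in PFC, blue points called higher in striatum, grey points not called and a black bar at the median of the list. The striatal projection neuron markers and the choroid plexus and ependymal markers lie wholly below 0, cortical excitatory neuron markers mostly above it, and microglia and endothelial lists close to 0.

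Among glia, oligodendrocytes separated the regions, and microglia and vessels did so little. All 26 oligodendrocyte and myelin genes were higher in striatum and all 26 passed the adjusted p, against 28.4% of all genes on that side. Of these, 16 reached 2-fold, and the median was -1.04. Mbp, myelin basic protein, was at 86765 to 106712 in striatum (median 102629) and 38376 to 58192 in PFC (median 56692), a difference of -0.91 (SE 0.09, limma adjusted p = 6.19e-07). The groups did not overlap. PFC replicate 1 was the lowest library, and without it 7 of the 26 genes reached 2-fold.

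Trf, transferrin, made by oligodendrocytes, had the largest difference of the list, at 8424 to 9598 in striatum (median 8641) and 2529 to 3784 in PFC (median 3566), 2.59-fold (difference -1.37, SE 0.08, limma adjusted p = 7.23e-10). Nkx6-2, a homeobox factor of the lineage, differed by -1.34 and Ermn, a cytoskeletal protein of myelinating cells, by -1.25. Olig2, a lineage factor also carried by precursors, overlapped between regions, at 662 to 910 in striatum and 512 to 680 in PFC (difference -0.49, limma adjusted p = 8.9e-05). Of 14 precursor genes, 2 were called higher in striatum, Lhfpl3 (-1.38) and Enpp6 (-1.05), and 1 in PFC, Ccnd1 (1.05), with a median of -0.17. That was 21.4% of the list against 13.5% of all genes. Enpp6 lay under 2-fold, at -0.99, in the alternative that left out PFC replicate 1.

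Astrocyte genes were called for 3 of 30, 1 higher in PFC and 2 in striatum, a share below the 13.5% of all genes. By the adjusted p alone, 11 of the 30 were higher in PFC and 14 in striatum, against 27.2% and 28.4% of all genes. So most differed between regions, but by less than 2-fold. Agt, angiotensinogen, made by astrocytes of deep brain regions, was at 963 to 2143 in striatum (median 1748) and 55.6 to 70.8 in PFC (median 65.5), 24.3-fold higher in striatum (difference -4.60, SE 0.17, limma adjusted p = 7.43e-12). Itih3, a secreted matrix-binding protein, was at 1470 to 2467 in striatum (median 2126) and 380 to 499 in PFC (median 427), a difference of -2.24. Lhx2, a homeobox factor of cortical progenitors and astrocytes, was at 1654 to 1946 in PFC (median 1812) and 562 to 828 in striatum (median 642), a difference of 1.48. These genes did not overlap between regions and ran in opposite directions within the same list. The part of other cell types and of neighbouring tissue in their values was not tested.

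General astrocyte genes differed by less. Gfap, the intermediate filament of reactive and white-matter astrocytes, was at 3093 to 3551 in striatum (median 3334) and 2135 to 2794 in PFC (median 2212), a difference of -0.50 (SE 0.07, limma adjusted p = 4.42e-06). Slc1a2, the main glutamate uptake transporter, was at 97673 to 116631 in PFC (median 111783) and 57651 to 73634 in striatum (median 67835), a difference of 0.72. Aqp4, the water channel of astrocyte endfeet, was at 3337 to 4187 in PFC and 3711 to 4186 in striatum (difference -0.06, 95% interval -0.17 to 0.06, limma adjusted p = 0.382).

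No microglia gene of 20 and no endothelial or mural gene of 18 was called by limma with the 2-fold minimum. In microglia the adjusted p alone was passed by 8 genes higher in PFC and 1 higher in striatum, with a median of 0.15 that came to 0.00 with equal library totals. Fcrls, a microglial surface receptor, had the smallest p at a difference of 0.54 (limma adjusted p = 5.84e-07), and Cx3cr1, the fractalkine receptor, was at 1267 to 1531 in PFC and 1054 to 1428 in striatum (difference 0.15, 95% interval 0.01 to 0.29, limma adjusted p = 0.0695). In vessels, 7 genes were higher in PFC and 1 in striatum by the adjusted p alone. Rgs5, of pericytes, had the smallest p at 0.36. Meningeal and collagen markers were called for 2 of 13 (15.4%, near the 13.5% of all genes), both higher in PFC. PFC replicate 1 averaged 8.84 in these markers and the other PFC libraries 8.25 to 8.36. Those calls, Slc22a6 (1.15) and Islr (1.01), came down to 1 without any of PFC replicates 1 and 5 or striatal replicates 3, 4 and 6. Blood cell genes were called for 1 of 6 (16.7%, also near the share of all genes), S100a9 (1.32). None was called without PFC replicate 1 or without striatal replicate 2 or 4.

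Among genes with a mean of at least 100 in the higher region, those of largest difference on the PFC side were Ovol2 (5.44), Mylk3 (5.27), Neurod6 (5.21), Gm11549 (5.2), C730002L08Rik (5.15), 9130024F11Rik (4.83), Neurod2 (4.75), Cd6 (4.53), Dkkl1 (4.51) and Hkdc1 (4.49), of which 2 are on the cortical lists. Ovol2, a zinc-finger factor (chr2:144305175-144332146), was at 202 to 281 in PFC (median 227) and 0 to 35.9 in striatum (median 4.48, limma adjusted p = 2.74e-05). Hkdc1, a hexokinase family member (chr10:62383137-62422491), was at 670 to 825 in PFC and 13.4 to 64.9 in striatum (limma adjusted p = 9.43e-08). C730002L08Rik (chr19:20410544-20552330) and 9130024F11Rik (chr1:56971412-57050084) are annotated as processed transcripts and stood at 513 to 617 and 802 to 891 in PFC against 1.88 to 77.3 and 6.62 to 95.8 in striatum. Positions are from the GENCODE annotation of GRCm38. In all of these the groups did not overlap, against 18.5% of all genes on the PFC side. The genes were picked for their large differences, so the lack of overlap is no separate support.

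Among the 10 largest on the striatal side were Ttr (-9.86), Oxt (-8.50), Calcr (-7.62), Six3os1 (-7.55), Isl1 (-7.37), Lhx8 (-7.36), Mfrp (-7.12), Dlk1 (-6.94) and Clic6 (-6.86), and 4 of the 10 are on the lists of neighbouring tissue. Mfrp is on none of these lists. Like Ttr and Clic6, it averaged far more in hippocampus (508) than in any PFC library (0.841 to 7.9). The hippocampal libraries ran from 22.9 to 879 in Mfrp, and the part of neighbouring tissue in its values was not tested. Ttr, transthyretin, the main secreted protein of the choroid plexus, was at 20131 to 81544 in striatum (median 37662) and 15.8 to 69.5 in PFC (median 41.6, limma adjusted p = 4.56e-09). Calcr, the calcitonin receptor, was at 144 to 364 in striatum (median 225) and 0 to 1.66 in PFC (median 0). Dlk1, a Notch-ligand relative that is imprinted, was at 1856 to 3134 in striatum (median 2116) and 6.2 to 74.8 in PFC (median 16.3). The choroid plexus factor gene Otx2 differed by -6.83. Choroid plexus and ependymal markers, a list that holds Ttr, Clic6 and Otx2, averaged 8.83 to 10.33 in striatum and 4.02 to 4.57 in PFC. Their part in the list of largest differences was not tested.

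Leaving out striatal replicates 1, 4 and 5 gave 1099 genes called higher in PFC and 1422 higher in striatum, and leaving out replicates 2, 3 and 6 gave 870 and 1121, against 930 and 1374 with all 12 libraries.

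The same regions in Myt1l heterozygotes were compared in the libraries labelled so, 5 of PFC and 6 of striatum, none of which entered the comparison above. The code of wild-type PFC replicate 6 is also that of heterozygote striatal replicate 1, and whether these come from 1 animal was not tested. There 969 of 17081 genes were called higher in PFC (5.67%) and 1415 higher in striatum (8.28%). Of the 902 wild-type PFC calls tested in both, 794 (88.0%) were called again in heterozygotes, and of the 1355 striatal calls 1198 (88.4%) were. No gene was called in opposite directions. Of the heterozygote calls, 82.5% on the PFC side and 87.3% on the striatal side were called in wild type. Without heterozygote striatal replicate 1, 1048 genes were called higher in PFC and 1474 higher in striatum in heterozygotes. The difference was -5.49 in wild type and -4.99 in heterozygotes for Drd2, -3.80 and -3.61 for Penk, 4.24 and 4.75 for Slc17a7, and -0.91 and -0.97 for Mbp.

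A test of whether the regional difference itself differed between genotypes called 0 of 17045 genes by the limma adjusted p, with 590 (3.46%) at an unadjusted p under 0.05. Myt1l itself, a neuronal zinc-finger factor, was at 5578 to 7992 in wild-type PFC (median 6602) and 6923 to 8275 in wild-type striatum (median 7740). The groups overlapped, with a difference of -0.21 (SE 0.07, limma adjusted p = 0.0227).

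**Figure D5:**
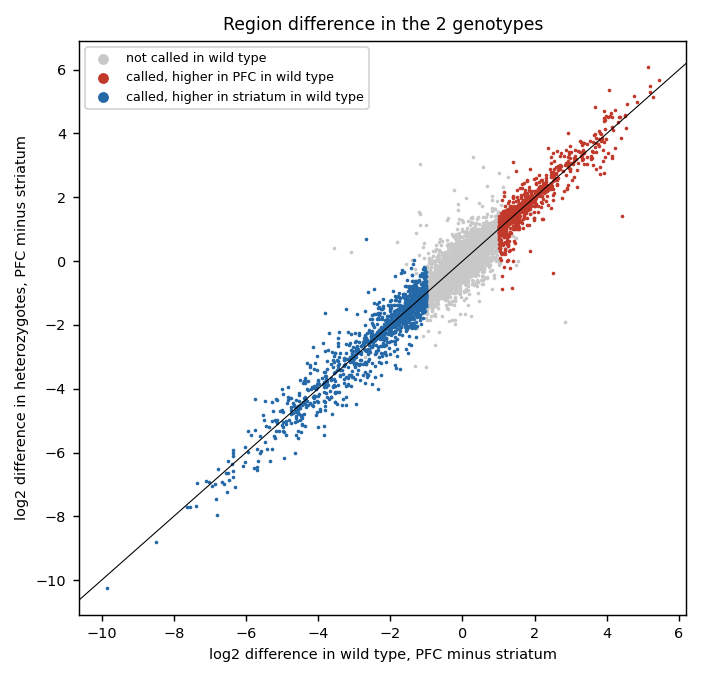
Difference between PFC and striatum (log2, PFC minus striatum) in Myt1l heterozygotes (y axis) against that in wild type (x axis) for each gene tested in both, coloured by its wild-type call (red higher in PFC, blue higher in striatum, grey not called), with the line of equal values. Genes called in wild type lie near the line in both directions, 794 of 902 and 1198 of 1355 of them called again in heterozygotes.

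Wild-type hippocampus, measured in 6 further libraries, served as a further region for levels only. The hippocampal mean lay nearer to PFC than to striatum for 458 of the 930 PFC calls (49.2%) and for 822 of the 1374 striatal calls (59.8%), against 50.8% of all genes. Slc17a7 averaged 31265 and Neurod6 4829 in hippocampus, both above every striatal library. Mef2c, at 4488, lay far below its PFC level. Drd1 (124), Penk (458) and Adora2a (42.3) lay below the lowest PFC library. Ttr averaged 32873 in hippocampus, within the striatal range, but the hippocampal libraries ran from 1298 to 59896. Sim1 (0.626) and Chat (0.736) lay on average far below every striatal library.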

How the data were processed

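RNA-seq was measured in 34 libraries, of which the 12 wild-type PFC and striatum libraries were compared. The authors deposited a table of normalized counts, a signal value per gene and library that is not a whole number, named as DESeq counts. Salmon 1.1.0, R 3.6.2, DESeq2 1.26.0 and GRCm38 are named per the submitters' processing notes, with no role or order. The read depth before scaling is not given, and strand use is not given in the sources used here. Each gene of the 18548 in the table reached at least 10.2 in some library. Symbols and positions came from GENCODE M21 of GRCm38, where 18533 identifiers matched and 15 did not.

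Values were taken to log2 after adding 1 and tested with limma 3.58.1 in R 4.3.3 (trend and robust, 2-sided, Benjamini-Hochberg over 17008 genes). No count model was used, since the values are not raw counts and whole reads were not recovered. The fit was tested on simulated data. Tables and figures were made with Python 3.11.15, pandas 2.3.3, numpy 2.4.6, scipy 1.17.1 and matplotlib 3.10.9.

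The comparison, its members and the 36 gene lists were chosen with earlier results of these data known. The lists hold 690 genes, of which 671 were tested. The others were below the mean of 10 (Grin3b, Gsx2, Gna14, Gnb3, S100a8) or had no row under the listed name, in some cases an older name. Named were, per list, up to 3 called genes in each direction with the largest difference (or, with none called, the gene with the smallest p), the 10 largest differences in each direction with a mean of at least 100 in the higher region, 19 region markers shown in every library, and Myt1l. A few genes that this rule gives are not reported here. Other list members were named after their values were seen. No set test was made.

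Libraries of the 2 regions share replicate numbers in the labels, and the table's columns carry a code that 5 libraries of each region share. The code of wild-type PFC replicate 6 stands on 2 heterozygote libraries of other regions instead, and the labels were followed. Deviations of same-numbered libraries from their group means correlated at 0.01 to 0.12, and those of libraries with the same code at -0.02 to 0.07. Neither was taken as a pairing. Alternatives were other pseudocounts, filters, scalings, blocks and subsets of libraries.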

Additional observations from a re-analysis of the deposited data

Results flagged for a closer look

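In each wild-type region, 20 genes shown in every library and the mean levels of the 36 lists were examined for a library far from the others of its group by Dixon's test, 112 groups in all. Chance alone would single out about 1 in 20 groups, and 9 were singled out.

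PFC replicate 1 was low in myelin genes. Mbp was at 38376 there and at 55534 to 58192 in the other PFC libraries, and the oligodendrocyte and myelin genes averaged 10.3 against 10.8 to 10.9 on the log2 scale. The same library was high in meningeal and collagen markers, at 8.84 against 8.25 to 8.36. In striatum, replicate 1 was low in Mbp, at 86765 against 102172 to 106712. Each of these values lay on its own region's side for Mbp and the myelin genes.

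Genes of striatal neurons stood out in single PFC libraries. Adora2a was at 251 in PFC replicate 5 and 64.7 to 115 in the others, Isl1 was at 12.9 in PFC replicate 3 against 0 to 2.97, and Chat was at 61.5 in PFC replicate 2 against 8.25 to 19.5. GABA receptor genes averaged 11 in PFC replicate 6 against 10.9 in the others, and adrenergic and histamine receptor genes 8.05 in striatal replicate 6 against 7.82 to 7.9. None of the 156 named genes had a regional difference that itself differed between genotypes by the limma adjusted p.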

How the results depend on the processing

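The count of genes called higher in striatum was 800 with a mean of at least 50 required, where 653 were called higher in PFC, against 1374 and 930. Equal library totals moved the median of all genes from -0.01 to -0.15, so differences under that scaling are relative to this shift, and turned the list medians of glutamate synthesis and transport (-0.02), ionotropic glutamate receptors (-0.06), GABA receptors (-0.06) and Wnt signalling (-0.10). Quantile normalization turned ionotropic glutamate receptors (-0.14) and GABA receptors (-0.16). Leaving out striatal replicates 2, 3 and 6 turned GABA receptors (-0.03) and retinoid signalling (0.02), and leaving out replicates 1, 4 and 5 turned Wnt signalling (-0.03) and the ephrin, semaphorin, slit and netrin list (0.03). These subsets of libraries, the fixed code block and the set without unshared codes were chosen after seeing the data, and the cause of each turn was not tested. PFC calls made up 40.4% of all calls, 31.9% with equal totals and 49.5% with quantile normalization. Leaving out 1 library at a time gave 905 to 987 PFC calls, 1299 to 1403 striatal calls and 8968 to 9303 genes by adjusted p alone in wild type. In heterozygotes it gave 946 to 1048 PFC calls and 1366 to 1474 striatal calls. Of 4200 values of the 156 named genes under the alternatives, 4122 kept direction and side of the threshold, 65 lost a call and 13 gained one. Mbp was called with equal totals (-1.06) and quantile normalization (-1.11).

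With the replicate number as a block, wild type gave 937 PFC calls and 1377 striatal calls, heterozygotes 945 and 1409, and the difference between genotypes 0. Of the 12 libraries 4 correlated best with their own number. The column code gave 932 and 1375 calls as a random block and, as a fixed block in 10 libraries, 961 and 1395. The 8 libraries whose code begins with 35 gave 955 and 1393. Precision is limited by 6 libraries a region, with a median 95% half-width of 0.19, and by a depth before scaling that is unknown.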

Other observations

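Markers of GABAergic interneurons, the local inhibitory cells of both regions, were called for 10 of 19 genes, 5 higher in PFC and 5 in striatum, with a median of -0.23. On the PFC side stood Lamp5 (1.86), of neurogliaform cells, Vip, Cck, Npy and Htr3a. On the striatal side stood Chodl (-2.58), which marks long-range cells with nitric oxide synthase, Nos1 (-1.08), the synthase itself, Tac2 (-1.15), Th and Calb2. Chodl was at 91.2 to 150 in striatum (median 112) and 7.97 to 37.1 in PFC (median 21.1), without overlap (limma adjusted p = 1.58e-06). Pvalb, of fast-spiking cells, overlapped between regions, at 808 to 1243 in PFC and 405 to 928 in striatum (difference 0.85, SE 0.19, limma adjusted p = 0.00151). Lhx6, a factor of cells from the medial ganglionic eminence, was at 746 to 961 in striatum and 452 to 534 in PFC (difference -0.74, SE 0.07, limma adjusted p = 1.14e-07). Interneuron markers averaged 9.67 to 9.82 in PFC and 9.59 to 9.77 in striatum on the log2 scale, so the list as a whole overlapped while its members separated in both directions.

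Among the cortical excitatory markers, 2 genes were called on the striatal side, Foxp2 (-2.22), a deep-layer gene that spiny neurons share, and Nxph4 (-1.20), a neurexophilin of deep-layer cells.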
